A study of Caenorhabditis elegans with 2 samples.

Results

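The regions described here are the 430 of 29925 nuclear candidate regions (1.44%) of the pooled GEI-17 ChIP-seq list whose summit lay within 200 bp of an annotated tRNA gene. Where several summits shared an interval, only the one with the highest signal was kept. The worms were whole Caenorhabditis elegans young adults of strain OP572, collected at 64 h after synchronisation by bleaching and L1 starvation, with males and females pooled. Their genotype was unc-119(tm4063) with the integrated transgene wgIs572, in which gei-17::TY1::EGFP::3xFLAG, the gene fused to GFP and FLAG tags, is carried together with the rescuing copy unc-119(+). Chromatin was sonicated to a labelled size range of 200 to 800 bp and precipitated with an antibody to GFP in 2 biological replicates, numbered 4 and 5. The replicates form 1 group, all of it carries the tagged transgene, and untagged worms were not analysed here, so signal that depends on GEI-17 and signal that any tagged protein would give at these sites cannot be told apart. Whole animals were used, so the tissue in which a region was occupied is unknown.

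GEI-17 is the worm member of the PIAS family of SUMO E3 ligases, enzymes that help transfer the small protein SUMO to chromatin-bound and other nuclear proteins. tRNA genes are short genes read by RNA polymerase III. Their promoter lies inside the gene: the factor TFIIIC binds a downstream B box and an upstream A box and places TFIIIB just before the transcription start, where TFIIIB recruits the polymerase. Transcription usually ends at a short run of T just past the gene. In C. elegans tRNA genes occur in many near-identical copies and often lie within introns of protein-coding genes. They are found on all nuclear chromosomes, most densely on X, many of them singly and others in pairs or larger clusters.

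The 5 highest regions whose tRNA genes differ in sequence illustrate this layout, with genes passed over that have an identical copy on a chromosome whose sequence is not printed here. Each line gives 60 bp of upstream sequence followed by the gene on the strand that is transcribed, 5′ to 3′, from the RefSeq sequence of build ce11 (WBcel235). The A box and the B box are in capitals.
R04A9.t1 (glutamine, chrX:410331-410462, plus strand): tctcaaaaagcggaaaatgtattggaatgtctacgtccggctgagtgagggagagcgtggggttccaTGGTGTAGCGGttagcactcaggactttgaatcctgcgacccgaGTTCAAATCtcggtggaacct
R11.t1 (tyrosine, chrX:16209769-16209912, minus strand): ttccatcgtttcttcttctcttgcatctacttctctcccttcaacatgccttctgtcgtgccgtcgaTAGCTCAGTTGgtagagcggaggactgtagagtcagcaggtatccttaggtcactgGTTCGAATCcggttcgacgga
F15G9.t1 (alanine, chrX:9743529-9743660, plus strand): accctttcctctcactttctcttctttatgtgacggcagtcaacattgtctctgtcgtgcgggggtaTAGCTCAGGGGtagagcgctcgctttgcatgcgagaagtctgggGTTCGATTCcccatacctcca
F55G7.t2 (threonine, chrX:11935080-11935211, minus strand): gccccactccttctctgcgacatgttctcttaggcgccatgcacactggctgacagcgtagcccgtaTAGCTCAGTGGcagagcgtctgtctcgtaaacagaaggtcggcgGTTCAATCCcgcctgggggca
C04A11.t1 (leucine, chrX:13665495-13665673, plus strand): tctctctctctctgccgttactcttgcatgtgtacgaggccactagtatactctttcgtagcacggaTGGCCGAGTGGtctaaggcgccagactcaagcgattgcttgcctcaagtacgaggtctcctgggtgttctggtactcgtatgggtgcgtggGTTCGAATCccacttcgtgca
All 5 genes matched the A box consensus. All 5 also held the B box letters GTTCNANNC, and R11.t1, F15G9.t1 and C04A11.t1 held the stricter form GTTCGANNC. The genes R11.t1 and C04A11.t1 carry an intron between the boxes.

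Of the 430 regions, 96 (22.3%, exact 95% interval 18.5 to 26.6) passed the authors' irreproducible discovery rate (IDR) filter, against 3.26% of all nuclear regions. The IDR method is based on how alike regions rank between replicates. The intervals cover counting error over regions only, since regions are not replicates, and no test was run. Signal is the height the authors deposited with each summit, on a scale that is not stated, and it is compared only within 1 list. In the pooled list the regions near tRNA genes ranged from 20.5 to 848 with a median of 62.5, and 341 of the 430 (79.3%) were above the median of all nuclear regions, 33.9. The filter separated the regions near tRNA genes by pooled signal alone: the lowest that passed, at the proline gene B0212.t1 in an intron of osm-9 on chromosome IV (chrIV:3551949-3552392), had a signal of 110.45 and the highest that did not pass, at the threonine gene R11B5.t1 in an intron of tbc-12 on X (chrX:2527865-2528308), had 110.37. Just inside was also the methionine gene E01H11.t1 (110.5), and just outside the arginine gene F35H8.t1 (109.5). A count of regions passing is therefore a count above a fixed height, with 49 regions between 90 and that height and 24 between it and 130. Passing does not tell whether a single region ranked alike in both replicates.

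The 96 passing regions had a median pooled signal of 175 (quartiles 129.8 and 238), and 39 of them exceeded 200. Only 2 exceeded 500, and 8 of the 100 highest nuclear regions lay near a tRNA gene. The plot of pooled signal by chromosome shows this range, with most regions in a continuous spread across the filter's height and a thin upper tail on X.

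**Figure D1:**
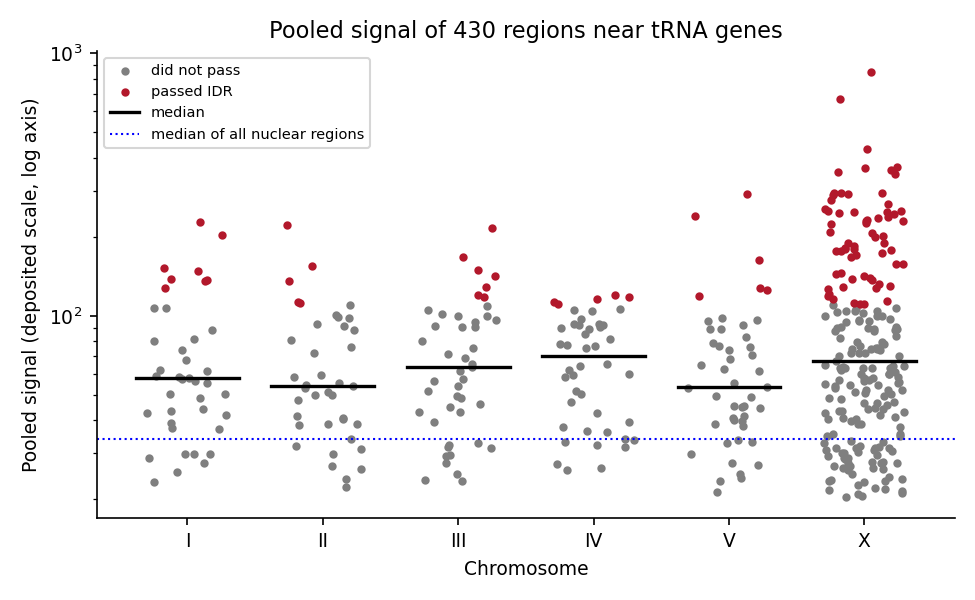
Pooled signal (deposited scale, log axis) of each of the 430 regions near tRNA genes by chromosome, with red points for the 96 regions that passed IDR, grey points for the 334 that did not, a black bar for the median of each chromosome and a dotted line for the median of all nuclear regions (33.9). Signals above 300 are seen on X only in these 430 regions, and the medians of all 6 chromosomes lie above the dotted line.

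The highest region was at R04A9.t1, a glutamine tRNA gene within an intron of ZK1193.2 and on the opposite strand (chrX:409958-410540), with a pooled signal of 848, 374 in replicate 4 and 490.2 in replicate 5. Its summit lay 158 bp upstream of the gene, farther than that of most passing regions. A second interval, longer by 2 bp and with a lower summit (pooled signal 225), was listed at the same place and passed as well, so this site counts as 2 of the 96. The region at R11.t1, the last of 4 identical tyrosine genes in a row (chrX:16209696-16210116), had a pooled signal of 668, 299.5 in replicate 4 and 369.8 in replicate 5. Its summit was 36 bp upstream of the gene, and of the other 3 copies 1 had a candidate that did not pass, at R11.t3 (pooled signal 56.5), and the other two had none. These 2 sites stood apart from the rest.

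Next came the region between the divergent glycine gene M02F4.t1 and glutamate gene M02F4.t2 (chrX:3035921-3036309), whose pooled signal was 431, against 218 and 208 in replicates 4 and 5. The alanine genes F15G9.t1 and F15G9.t2, in an intron of him-4, the gene of the extracellular matrix protein hemicentin, shared a region with 369.8, 157 and 230.0 in the same order. The threonine gene F55G7.t2 had 366 pooled, 151 in replicate 4 and 225 in replicate 5. All 3 places lie on X, and at the first and the third the summit was 21 to 48 bp upstream of the nearest gene.

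A further group of regions had pooled signals between 348 and 359.5. At the glutamate gene C28G1.t1, in the promoter window of sec-15, which encodes a subunit of the exocyst, the signal was 359.5 pooled, 163 in replicate 4 and 203 in replicate 5. The glycine gene F56C3.t1 had 352, 144 and 205, and the leucine gene C04A11.t1, which has no identical copy in the genome, had 348, 167 and 183, again in the order pooled, replicate 4 and replicate 5. These are single tRNA genes with no other within 1000 bp.

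The remaining 7 of the 15 highest passing regions formed a narrow band between 276 and 294. They were at the proline gene F46G11.t2 (294 pooled, 137 in replicate 4, 157 in replicate 5), the lysine gene W03G11.t1 (292, 151 and 139.7) and the serine gene C53C7.t1 (292, 129 and 166). The proline gene T23F1.t2 on chromosome V (291, 93.0 and 202) and the asparagine gene F41D9.t3 in an intron of sulp-3 (291, 95.4 and 200.3) came next. The proline genes ZK899.t1 (289, 148 and 145) and Y59E1B.t2 (276, 105 and 171) completed the list. T23F1.t2 was the only one of the 15 that was not on X.

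Where both replicates listed a summit, they ranked the regions near tRNA genes similarly, but less so among those that did not pass. A summit was listed inside the interval in both replicates for 329 of the 430 regions (76.5%) and for 94 of the 96 that passed, against 42.0% of all nuclear regions. Across those 329 regions the signals had a Pearson correlation of 0.889 and a Spearman correlation of 0.732, given as a description since the points share libraries and include neighbouring intervals that hold the same summit. Without the 2 highest regions the Pearson value was 0.854. Over the 12557 of all nuclear regions with a summit in both, the Pearson correlation was higher, 0.947, and the Spearman correlation lower, 0.457. Near tRNA genes, the Spearman correlation was 0.737 within the 94 passing regions. Within the 235 others it was 0.458, as the plot of both replicates shows by its wider lower scatter. These 2 sets are split by pooled signal, which draws on both replicates, so their correlations depend on that split. Signals of the replicates come from lists of unstated scale and were not compared in size. The passing regions K09A11.t1 (pooled 179, 80.9 in replicate 4) and ZC455.t1 (119, 48.0 in replicate 4) had no summit in replicate 5.

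**Figure D2:**
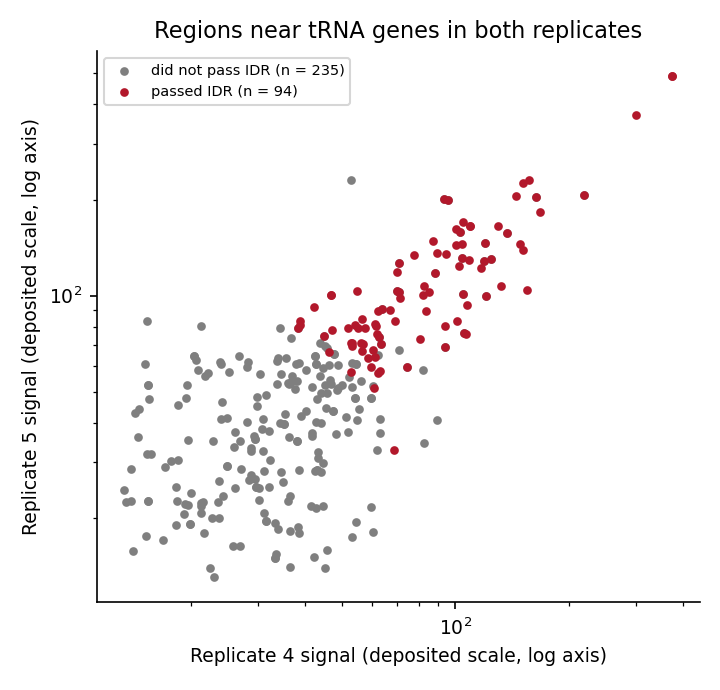
Signal in replicate 4 against replicate 5 (deposited scales, both log axes) for the 329 regions near tRNA genes with a summit in both, with red points for the 94 that passed IDR, and grey points for the 235 that did not. Passing regions fill the upper right (Spearman correlation 0.737) and the others scatter more widely (0.458).

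When each replicate was read alone, the 1010 highest nuclear summits, as many as the IDR list holds, fell in 116 of the 430 intervals in replicate 4 (27.0%, against 4.07% of all nuclear regions) and in 113 in replicate 5 (26.3%, likewise against 4.07%). Of the 96 passing regions, 79 held such a summit in replicate 4, 82 in replicate 5, 68 in both and 3 in neither. A further 21 regions held one in both replicates without passing, and some of these are the lower neighbour of a passing region that contains the same summit. At M02F4.t1, for example, a second candidate 151 bp into the gene's direction of transcription had a pooled signal of 89.5 and contained the same replicate summits as the region with 431.

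The summits of the passing regions concentrated just before the tRNA genes. Measured in the direction of transcription from the 5′ end of the nearest tRNA gene, they had a median position of -19 bp (quartiles -36.2 and 15.2), and 61 of 96 (63.5%) were upstream of the gene. In 50 of 96 (52.1%) the summit fell in the 50 bp before the gene. The regions that did not pass had a median of 31 bp (quartiles -33 and 114.5), with 40.4% upstream and 80 of 334 (24.0%) in the 50 bp before the gene. Summits of the 2 sets overlapped widely.

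Replicate 4 alone placed the passing regions at a median of -17 bp and replicate 5 alone at -12.5 bp, against 17.5 and 7 bp for the regions that did not pass. Some passing regions had their replicate summits on opposite sides of the 5′ end. Examples are H06A10.t1 (59 bp in replicate 4, -34 bp in replicate 5) and C14F11.t1 (-21 and 57 bp). The side of the 5′ end is therefore uncertain for such single regions. The median of passing regions was -19 bp among X regions and -18 bp among autosomal ones, and it stayed at -19 bp among the 79 passing regions with a single tRNA gene in the window. The distance between the passing and the other regions was smaller when the 38 regions that overlap a passing region were left out of the latter (median 16 bp, 26.7% in the 50 bp before the gene). For 393 of the 430 regions the interval had the same width of 444 bp, and 37 passing regions were narrower or wider, with a median summit position of -25 bp.

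By position, 50 of 130 regions with a summit in the 50 bp before the gene passed (38.5%, interval 30.1 to 47.4). In the next 50 bp upstream 9 of 36 passed (25%, 12.1 to 42.2), and inside the gene 25 of 114 did (21.9%, 14.7 to 30.6). At 73 to 122 bp from the 5′ end, mostly just past the gene, 10 of 42 passed (23.8%, 12.1 to 39.5), and beyond that 0 of 78, which allows a share of up to 4.62% by the exact interval. No region with a summit farther than 122 bp past the 5′ end passed, against 2 of 30 at 101 to 200 bp upstream. Some of the candidates beyond 122 bp overlap a passing region at the same gene, such as those at C02B4.t2 (179 bp) and C28G1.t1 (152 bp). The distance to the gene enters the rule, so these positions describe the regions within its window of 200 bp.

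**Figure D3:**
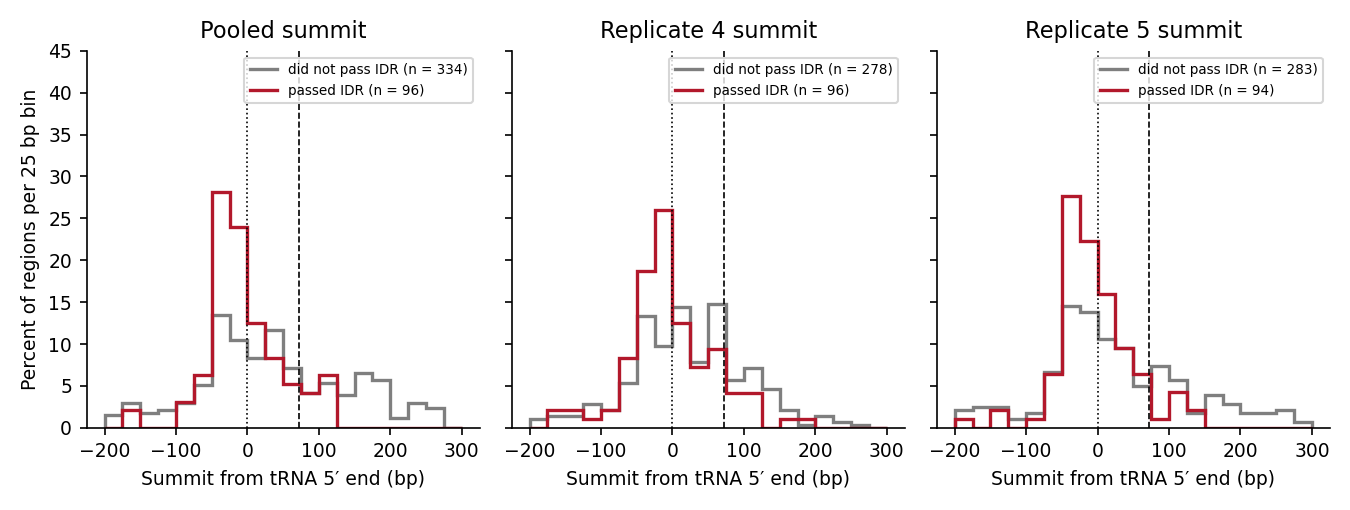
Summit position relative to the 5′ end of the nearest tRNA gene (bp, negative is upstream; percent of regions per 25 bp bin) for pooled, replicate 4 and replicate 5 summits, with passing regions in red and the others in grey; the dotted line marks the 5′ end and the dashed line 72 bp, the commonest gene length among the 20 largest families of identical tRNA genes. In all 3 panels the red line peaks within the 50 bp before the gene, with pooled, replicate 4 and replicate 5 medians of -19, -17 and -12.5 bp.

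X held as many of the 430 regions as the 5 autosomes together, 215 against 215, and 276 of the 612 nuclear tRNA genes (45.1%) are on X. On X 65 of the 215 regions passed (30.2%, interval 24.2 to 36.8), against 31 of 215 on the autosomes (14.4%, 10.01 to 19.8). Among all nuclear regions the shares were 4.55% on X and 2.88% on the autosomes. The X share was higher in each replicate alone (35.3% against 18.6% in replicate 4 and 38.1% against 14.4% in replicate 5). The medians of pooled signal were closer, 67.1 on X and 58.4 on the autosomes. The intervals of the shares passing do not overlap. Among the upper 488 regions of the list passing IDR, the corresponding shares were 20.9% on X and 3.72% on the autosomes. With the 2000 highest pooled summits called instead, they were 42.8% and 34.0%, a difference of 8.84 percentage points with an interval of -0.68 to 18.2 that includes 0.

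The single autosomes did not separate from each other. The counts passing were 8 of 40 on chromosome I (20%), 5 of 39 on II (12.8%), 7 of 45 on III (15.6%), 5 of 44 on IV (11.4%) and 6 of 47 on V (12.8%), and their intervals overlapped throughout. After T23F1.t2 on V, the highest autosomal regions were at the isoleucine gene F57F5.t1, also on V (pooled 241, 103 in replicate 4, 159 in replicate 5), the lysine gene M01E5.t1 on I (pooled 228, 87.0 in replicate 4, 148 in replicate 5) and the threonine gene W09G10.t3 on II (222, 89.6 and 137). The divergent proline genes W09D6.t2 and W09D6.t1 in an intron of rsa-2 on III had 216, 121 and 99.7. Chromosome IV reached only 119.8 pooled, at the aspartate gene F41A4.t1 (44.9 and 74.8).

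Several of the highest X regions had tRNA genes as neighbours. Of the 25 highest regions of X, 11 (44.0%) lay within 5000 bp of a tRNA gene, against 11.2% of all 6808 X regions, and 13 (52.0%) within 10000 bp, against 18.98%. The same counts, 11 and 13 of 25, were found in replicate 4 alone and in replicate 5 alone. Among these 25 only those at R04A9.t1 and R11.t1 were themselves near a tRNA gene by the 200 bp rule, and 9 of the other 23 were within 5000 bp of one. Conversely, 15 regions near tRNA genes lay within 10000 bp of the 25 highest X regions and 10 of these passed, among them W02H3.t1 (pooled 256), ZK899.t1, F55G7.t2 and H06A10.t1 (176). The 10 include R04A9.t1 and R11.t1, which are themselves among the 25, and the second interval at R04A9.t1. Their count is therefore in part fixed by the choice of the 25. The share passing among all X regions this close was not computed. The other 200 X regions near tRNA genes passed at 27.5% (21.4 to 34.2), still above the share on the autosomes. Of all X regions over 10000 bp from the 25 highest, 4.08% passed.

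Regions near tRNA genes were placed by their summit into promoter windows of protein-coding genes (1000 bp before to 200 bp after the start), then exons, introns and intergenic sequence. Introns held 154, intergenic sequence 148, promoter windows 85 and exons 43. Passing shares were 22.7% in introns (35 regions, interval 16.4 to 30.2), 27.0% in intergenic sequence (40, 20.1 to 34.9) and 21.2% in promoter windows (18, 13.1 to 31.4). These 3 intervals overlap. Among all nuclear regions promoter windows passed most often (6.68%), followed by intergenic sequence (4.91%), introns (2.07%) and exons (0.635%), so the order among regions near tRNA genes did not have promoters first.

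In exons 3 of 43 regions passed (7.0%, 1.46 to 19.1), namely F01G12.t1 at the gene sur-7 (pooled 173, 69.9 in replicate 4, 104 in replicate 5), Y69A2AR.t2 and ZC455.t1. In the replicates read alone, 23.3% of the exon regions held one of the highest summits in replicate 4 and likewise in replicate 5. In the other contexts 27.4% and 26.6% of the regions did. A replicate summit was counted anywhere in the interval, however. Some exon regions counted this way did not pass but overlap a passing region and contain its replicate summits, such as those at C14B9.t2, F41D9.t3 and T28B4.t1. The replicate shares therefore do not tell whether the low share in exons holds. Of the highest regions in the remaining contexts, R04A9.t1 was intronic, R11.t1 intergenic and C28G1.t1 in a promoter window. Split by chromosome, 33 of 100 intergenic regions passed on X (interval 23.9% to 43.1%) and 7 of 48 on the autosomes (6.07% to 27.8%). In introns the counts were 21 of 71 (19.3% to 41.6%) and 14 of 83 (9.54% to 26.7%), and in promoter windows 10 of 32 (16.1% to 50.01%) and 8 of 53 (6.75% to 27.6%). The intervals of X and the autosomes overlap in each of these contexts, and all nuclear regions had the same order, with 7.64% against 3.73% in intergenic sequence, 2.70% against 1.89% in introns and 8.88% against 6.14% in promoter windows. In exons the counts near tRNA genes were 1 of 12 and 2 of 31.

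Orientation to the host gene was also counted. Where the tRNA gene lay within a protein-coding gene on the same strand, 18 of 115 regions passed (15.7%, 9.54 to 23.6), on the opposite strand 22 of 93 (23.7%, 15.5 to 33.6), and outside protein-coding genes 56 of 222 (25.2%, 19.7 to 31.5). The intervals overlap.

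Promoter windows near tRNA genes also bear on which protein-coding genes carry a region. The 96 passing regions near tRNA genes made up 9.84% of all nuclear regions that passed. A passing summit lay in the promoter window of 596 protein-coding genes, and for 22 of these genes the highest was one of the 96. The 22 genes included mom-1, which encodes the Porcupine protein needed for Wnt secretion, and lev-9, which encodes a secreted protein that clusters acetylcholine receptors, both at the alanine gene T07H6.t2 (pooled 251). Others were the nuclear receptor gene nhr-255 at ZK678.t1 (250.5), the guanylyl cyclase gene gcy-33 at F57F5.t1 (241) and the collagen gene col-185 at H06A10.t1 (176). Position does not tell whether such a region belongs to the tRNA gene or to the protein-coding gene.

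Neighbouring tRNA genes were joined into clusters at gaps of up to 1000 bp. The 612 genes formed 376 single genes, 78 pairs and 22 clusters of 3 or more, the last with 80 genes. At single genes 67 of 272 regions passed (24.6%, 19.6 to 30.2), at pairs 25 of 109 (22.9%, 15.4 to 31.97) and at clusters of 3 or more 4 of 49 (8.16%, 2.27 to 19.6). The lower share in clusters was present on X (3 of 31 against 47 of 132 at single genes) and rested on 1 of 18 regions on the autosomes. In replicate 5 alone it was 16.3% in clusters against 27.6% elsewhere and in replicate 4 alone 12.2% against 28.9%. With gaps of up to 500 bp the shares were 13.6% in clusters and 22.8% elsewhere, a difference of -9.16 percentage points with an interval of -20.7 to 12.5 that includes 0, against -16.0 points at 1000 bp.

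**Figure D4:**
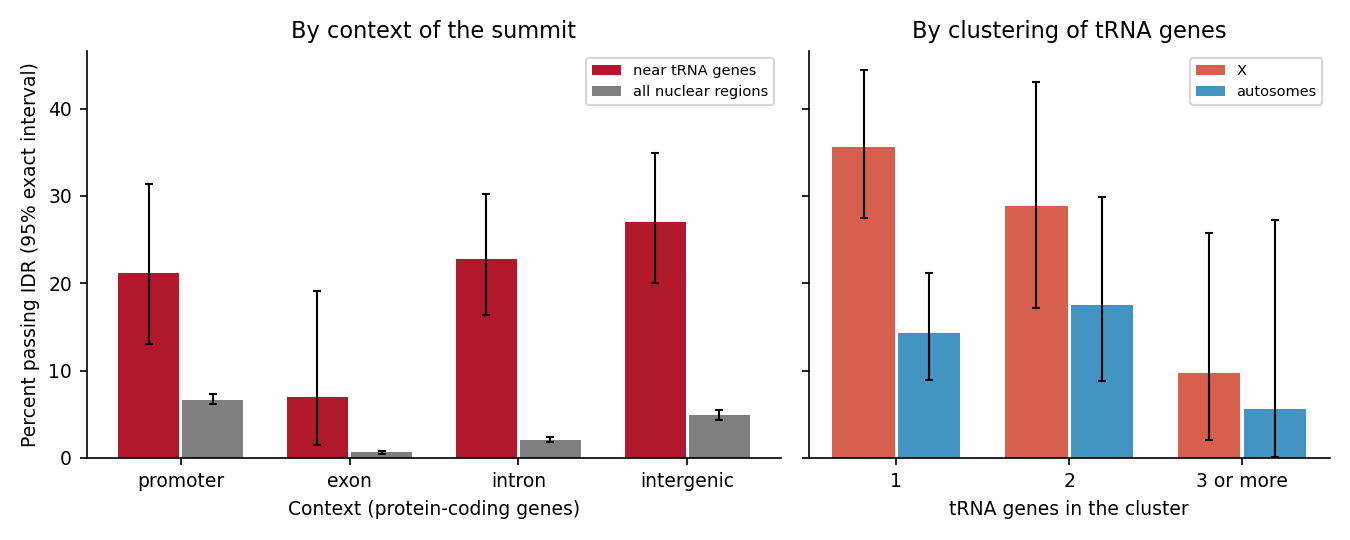
Percent of regions passing IDR with exact 95% intervals (bars from 0), left by context of the summit for regions near tRNA genes (red) and all nuclear regions (grey), right by number of tRNA genes in the cluster for X (orange) and autosomes (blue). Red bars exceed grey in every context, from 7.0% in exons to 27.0% in intergenic sequence, and the bars for clusters of 3 or more genes are the lowest on X and on the autosomes.

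The 4 passing regions in larger clusters were at R11.t1, C16B8.t2 (proline, pooled 180.3), K01A12.t4 (cysteine, 126) and C17D12.t2 (lysine, 138). The largest clusters had 6 genes each, both on X, and no passing region. At the mixed cluster F22F1.t2 to F22F1.t7 the candidates reached 94.9 at the methionine gene F22F1.t6 (45.9 in replicate 4, 49.4 in replicate 5), 54.8 at the serine gene F22F1.t2 and 43.2 at the isoleucine gene F22F1.t7. At the 6 identical histidine genes F28H6.t2 to F28H6.t7 they reached 63.0 and 31.4. Only a median of 23.2% of the 32-base words within 200 bp of these histidine genes occur once in the genome, against 87.0% in the F22F1 cluster, and the part of mappability in the low histidine signals was not tested.

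Among pairs, at least 1 gene had a passing region in 7 of 15 convergent, 9 of 37 divergent and 7 of 26 tandem pairs. Both genes did in 8 divergent, 5 tandem and 3 convergent pairs, all with gaps of 48 to 195 bp, so that 1 region can lie within 200 bp of both genes. The highest such regions were those at the divergent pair M02F4.t2 and M02F4.t1 (431), the tandem pair F15G9.t1 and F15G9.t2 (369.8) and the divergent proline pair F46G11.t2 and F46G11.t1 (294), followed by the divergent serine pair C53C7.t2 and C53C7.t1 (292). Regions with 2 or 3 tRNA genes in the window passed more often (17 of 43, 39.5%, interval 24.98 to 55.6) than those with 1 (79 of 387, 20.4%, 16.5 to 24.8), with intervals that do not overlap.

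Counted by gene, 109 of the 612 tRNA genes (17.8%, 14.9 to 21.1) had a passing region within 200 bp, 278 had a candidate only and 225 had none. By chromosome the genes with a passing region were 71 of 276 on X (25.7%), 9 of 66 on I, 8 of 57 on II, 9 of 64 on III, 5 of 71 on IV and 7 of 78 on V. Genes with none made up 30.4% of those on X and 42.0% of those on the autosomes. The 3 classes had similar median shares of unique 32-base words within 200 bp, 87.3% to 87.8%. None of the 17 genes with under 50% of such words had a passing region. Of all genes with under 80%, however, 25.7% (17.8 to 34.9) had one, against 16.1% (13.0 to 19.6) at 80% or more. On the autosomes these shares were 22.6% (12.9 to 35.0) and 8.76% (5.69 to 12.8), with intervals that do not overlap. On X they were 29.8% (17.3 to 44.9) and 24.9% (19.4 to 31.0).

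Every amino acid with 10 or more genes had at least 1 gene with a passing region. The highest shares were at glutamate (12 of 41 genes, 29.3%, 16.1 to 45.5), serine (10 of 39, 25.6%), proline (10 of 42, 23.8%), cysteine (3 of 13, 23.1%) and lysine (10 of 46, 21.7%). The lowest were at phenylalanine (1 of 14, 7.14%, 0.181 to 33.9), glutamine (2 of 27, 7.41%), valine (3 of 31, 9.68%), asparagine and histidine (2 of 20 each, 10%). All these intervals overlap, so no amino acid stood apart. The glutamine genes held the highest region of all, R04A9.t1, together with 13 of 27 genes that had no candidate. The single selenocysteine gene had a candidate of 50.5 that did not pass.

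**Figure D5:**
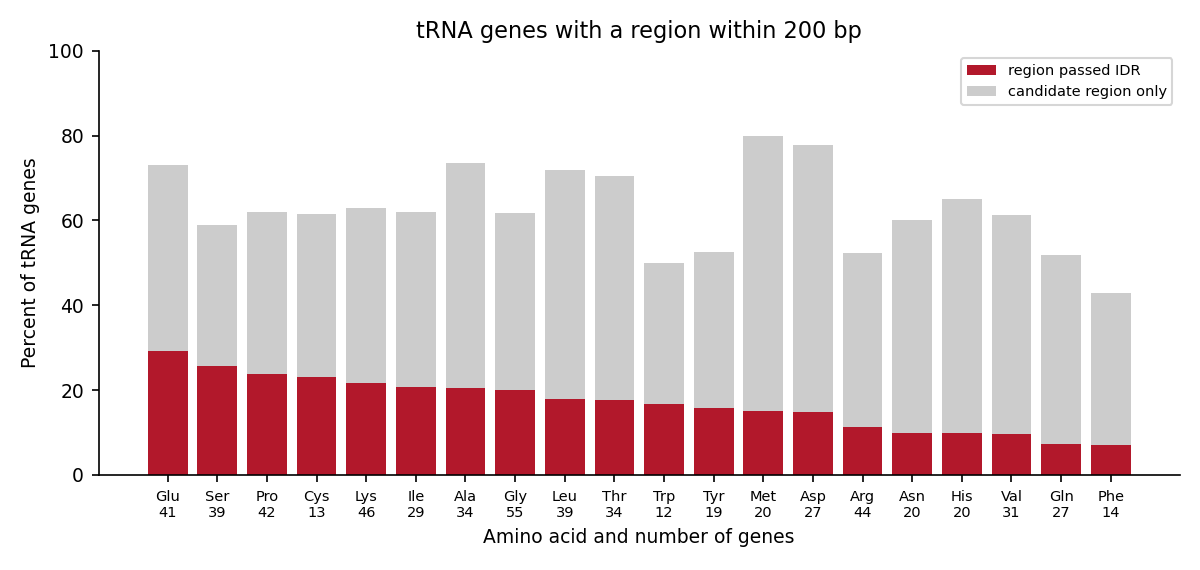
Percent of tRNA genes with a passing region within 200 bp (red) and with a candidate only (grey, stacked), by amino acid in falling order of the red share, with the number of genes under each name (amino acids with 10 or more genes). Red shares run from 29.3% at glutamate to 7.14% at phenylalanine without a break.

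Identical copies of a gene differed in whether a region was present. The 612 genes have 200 distinct sequences, and 20 of these occur in 10 or more copies (317 genes). In all 20 families some copies had a passing region and others had no candidate at all. The largest were a glycine family of 29 copies (9 passing, 12 with a candidate only, 8 with none), a lysine family of 25 (8, 13 and 4) and a proline family of 24 (7, 7 and 10). Genes with over 20 copies had a passing region in 28.3% (19.7 to 38.2) and genes with no identical copy in 9.09% (4.93 to 15.04), with intervals that do not overlap, and 53.1% of the latter had no candidate. On X the shares were 31.8% and 10.5%, and on the autosomes 25.5% and 8.14%. How reads from identical copies were assigned is not given in the sources used here, so counts of regions at identical genes are uncertain, while the flanks of most copies are unique.

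The proline family shows such copies. The gene itself is shared letter for letter by all 24, with the A box and B box in capitals as above, and the lines after it give the 60 bp just upstream of 3 copies on the transcribed strand, from the RefSeq sequence of build ce11.
Shared proline gene, as in F46G11.t1 (chrX:5801472-5801543, plus strand): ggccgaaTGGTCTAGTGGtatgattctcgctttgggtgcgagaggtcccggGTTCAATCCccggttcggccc
Upstream of F46G11.t1, within 200 bp of a passing summit (chrX:5801412-5801471, plus strand): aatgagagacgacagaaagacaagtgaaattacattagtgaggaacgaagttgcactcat
Upstream of C16B8.t1, candidate only (chrX:3969496-3969555, plus strand): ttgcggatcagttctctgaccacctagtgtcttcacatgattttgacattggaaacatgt
Upstream of F02H6.t1, no candidate (chrIV:14225042-14225101, plus strand): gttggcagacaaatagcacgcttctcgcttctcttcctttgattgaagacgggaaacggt
The passing region near F46G11.t1 (pooled 294) has its summit nearest to F46G11.t2 and outside the printed bases, and the candidate whose nearest gene is F46G11.t1 (28.6) did not pass. The candidate at C16B8.t1 had a pooled signal of 21.7, and F02H6.t1 had no candidate within 200 bp.

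Most genes held both internal promoter elements whether or not a region was present. The A box consensus was found in the first 40 bases of 592 of the 612 genes and the B box letters GTTCNANNC in 587, or GTTCGANNC in 441. None of the 20 genes without the A box match had a passing region (interval up to 16.8%), and 16 of them had no candidate. Among genes with GTTCGANNC 18.8% (15.3 to 22.8) had a passing region and among genes without it 15.2% (10.2 to 21.5), so the shares did not separate. A run of 4 T within 30 bp past the gene was present in 605 genes. Of the 29 genes with an intron (19 tyrosine, 7 leucine and 3 isoleucine genes) 7 had a passing region (24.1%, 10.3 to 43.5), among them R11.t1 and C04A11.t1.

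Around the summits, GTTCGANNC was found on either strand within 100 bp in 49.1% of the 430 regions, in 62.5% of the passing ones and in 2.51% of all nuclear regions. The A box consensus was found in 73.3%, 92.7% and 14.8% in the same order. Both follow in part from the rule, which places the summit near a tRNA gene. Outside the 430 regions, 540 regions held GTTCGANNC and 4.81% of them passed, against 2.95% of those without it. A match describes the letters and is not a binding site.

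After the printed sequences had been seen, the letters TCTCTC were counted, on either strand, in the 60 bp upstream of each tRNA gene. The genes of those sequences stay in the counts, and the intervals take no account of this late choice of letters. The letters were present upstream of 35 of 109 genes with a passing region (32.1%, 23.5 to 41.7), 20 of 278 with a candidate only (7.19%, 4.45 to 10.9) and 17 of 225 with none (7.56%, 4.46 to 11.8). Conversely, 35 of 72 genes with the letters had a passing region (48.6%) against 74 of 540 without them (13.7%). On X the 2 shares were 65.8% and 19.3%, and on the autosomes 29.4% and 9.27%. Of the sequences printed above, R11.t1, C04A11.t1 and F46G11.t1 held the letters. F46G11.t2, the gene nearest to the summit that F46G11.t1 is counted for, did not have them in its own 60 bp. They are not peculiar to tRNA genes in the list: within 100 bp of the summit TCTCTC was found in 44.8% of passing regions near tRNA genes, in 41.5% of other passing regions and in 17.8% of all nuclear regions. Upstream GC content over 50 bp had medians of 44%, 42% and 40% in the classes passing, candidate only and none.

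Further kinds of non-coding gene were set beside the tRNA genes. tRNA pseudogenes, of which 209 are annotated, had 39 regions within 200 bp that were not near a tRNA gene, with a median pooled signal of 29.9, and 2 of these passed (5.13%, 0.627 to 17.3), at T08B2.t1 (pooled 166, 79.1 in replicate 4, 80.9 in replicate 5) and D1046.t1 (152, 73.9 and 72.8). Of these pseudogenes 93.8% matched the A box consensus and 78.9% held GTTCNANNC. The interval of the passing share of the pseudogene regions lies below that of all regions near tRNA genes. Most of the pseudogene regions are on autosomes, however, and their interval overlaps that of the autosomal regions near tRNA genes (14.4%, 10.01 to 19.8). Regions near snoRNA genes passed in 50 of 181 cases (27.6%, 21.3 to 34.7) and regions near snRNA genes in 19 of 65 (29.2%, 18.6 to 41.8), shares whose intervals overlap with 22.3% at tRNA genes. The passing summits had a median of -30.5 bp from the 5′ end at snoRNA genes and 81 bp at snRNA genes. Only 1 region each was shared with the tRNA set.

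Other transcripts of RNA polymerase III gave mixed values. The gene rpr-1, for the RNA of RNase P, which trims the 5′ ends of tRNA precursors, had a passing region with 445.5 pooled, 221 in replicate 4 and 224 in replicate 5. The genes mrpr-1 and yrn-1 had no candidate within 200 bp. Among the 16 genes for 5S rRNA only rrn-4.12 had a candidate (24.0, not passing), but most of these genes lie in a repeat in which few 32-base words are unique.

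Among 38 listed protein-coding genes that serve tRNAs and had a candidate in their promoter window, 2 passed (5.26%, 0.644 to 17.7). Of all protein-coding genes with a candidate there, 596 of 6173 passed (9.65%), a share inside that interval, and with a promoter window of 500 bp upstream and 100 bp downstream 2 of 22 listed genes passed (9.09%). The 2 genes were ears-2, which encodes the mitochondrial glutamyl-tRNA synthetase (pooled 188, 54.2 in replicate 4, 135 in replicate 5), 1 of 23 synthetase genes, and rpac-19, by orthology a subunit shared by RNA polymerases I and III (141, 85.6 and 51.1), 1 of 8 genes of polymerase III and its factors. None of 7 genes for tRNA processing, modification and export passed. Neither region was near a tRNA gene.

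At the edge of the 200 bp window signals were low on both sides. Just inside, at 196 bp, were the candidates at F35A5.t1 (30.7), F19H6.t1 (26.7) and Y54G2A.t5 (26.3), and just outside, at 202 to 203 bp, those at B0513.t1 (40.1), Y95B8A.t1 (25.9) and Y71H2AM.t1 (24.0). By distance from the gene body, 25 of 114 regions at 0 bp passed, 59 of 171 at 1 to 50 bp, 10 of 77 at 51 to 100 bp, 0 of 32 at 101 to 150 bp and 2 of 36 at 151 to 200 bp, the last at R04A9.t1 and ZC455.t1. At 201 to 250 bp 1 of 17 passed.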

How the data were processed

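Candidate lists of replicates 4 and 5, the pooled list and the list passing IDR were used. Per the labels, the build is ce11. According to the deposited listings, the authors called candidates for each replicate and for both pooled, each time with a control alignment, and took the IDR list from these. No caller, caller version or IDR threshold is named: these are not given in the sources used. The signal of each summit is a deposited value on an unstated scale. A −log10 q-value was deposited too, with a ceiling of 2.89 in the pooled list, and was not used. Read depth is unknown, so intervals cover counting over regions only.

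The highest signal per interval was kept, which left 29925 regions of 29980 nuclear summits. tRNA genes came from Ensembl release 115 (WBcel235); all 612 matched RefSeq genes of that assembly by identifier, coordinates and strand, and RefSeq gave their amino acid, which is missing for 5. Shares have exact Clopper-Pearson intervals at 95%. With 1 group no conditions were compared, and no p-value was computed. Regions named are the 15 highest that passed, the highest of each chromosome, context and cluster class, those nearest the filter's height and the 200 bp edge, members of the largest clusters, and pathway genes that passed; others were chosen after their values were seen. The regions and the lists were chosen with earlier results of these data known. The steps were tested on simulated data, and all 6 recovered every planted answer. Python 3.11.15, pandas 2.3.3 and scipy 1.17.1 were used. Alternatives were either replicate alone (its 1010 highest nuclear summits, a number chosen after seeing the data in place of the planned 1030 over all chromosomes), a stricter and a looser threshold, windows of 100 and 500 bp, unmerged summits, other promoter windows and cluster gaps.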

Additional observations from a re-analysis of the deposited data

How the results depend on the processing

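Of 65 recomputed values, 52 stayed within the interval or replicate spread of the value reported, 13 moved and 0 changed direction. Direction means the sign, so only differences and positions could change it, and plain shares could not. The values of replicate 5 alone were identical with 1010 and 1030 summits and are counted under both, so the 65 are not separate checks. The share of regions passing (22.3%) was 26.3% to 27.9% with 1 replicate alone, 12.3% with the upper 488 regions of the list passing IDR and 38.4% with the 2000 highest pooled summits; the share of tRNA genes with a passing region (17.8%) was 16.2% to 16.8%, 9.97% and 28.6% under the same settings. Both thresholds change the number of regions called by construction. The exon share minus the share elsewhere (-17.1 percentage points) was -5.17 to -3.36 with 1 replicate alone. There a summit was counted anywhere in the interval, also where it belongs to an overlapping passing region, and the cause was not tested. These ranges cover both numbers of summits per replicate. Counting the 1010 nuclear summits, as the report does, was chosen after seeing the data. The planned number was 1030 over all chromosomes, the length of the IDR list with its mitochondrial summits. The list of replicate 4 holds nuclear summits only. With 1030 summits replicate 4 held 120 regions (27.9%), against 116 (27.0%) with 1010, and replicate 5 held 113 (26.3%) with either, and the exon difference in replicate 4 stayed within its interval (-5.17), while with 1010 it left it (-4.13). The median summit position (-19 bp) was -17 to -12.5 bp. Windows of 100 and 500 bp, unmerged summits, other promoter windows and cluster gaps of 500 and 5000 bp moved no value past its interval, but the cluster difference of -16.0 points was -9.16 (interval -20.7 to 12.5) with the 500 bp gap, and the interval of the exon difference reached 1.45 with the 100 bp window. With the upper 488 regions the cluster difference was -9.30 (-14.6 to 1.11) and the exon difference -11.1, and in replicate 5 alone the cluster difference was -11.2 (-21.4 to 2.81). Other settings chosen after seeing the data were X or the autosomes alone, which gave 25.7% and 11.3% of tRNA genes and, for clusters of 3 or more against the rest, -24.0 points on X and -9.67 on the autosomes (-17.6 to 12.6). The X excess of 15.8 points was 8.84 (-0.68 to 18.2) with the 2000 highest pooled summits, 13.1 without X regions within 10000 bp of the 25 highest and 17.8 without regions that overlap another passing region. No paired analysis was possible because the replicates form 1 group. With 2 replicates and no depth, the spread of single regions cannot be estimated, and low candidates may be missing from either list.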
